A study of Mus musculus with 12 samples.

Results

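The comparison described here is between 3 cerebella of MPI 11Q/11Q knockin mice and 3 cerebella of their wild type littermates, chosen by the sample titles, which makes 6 of the 12 arrays of the series. All mice were on the C57BL/6 background and 6 weeks old, and each array measured total RNA of 1 cerebellum sample by hybridization to Affymetrix probe sets. The knockin mice are homozygous for a Cacna1a allele with 11 glutamine codons, and the littermates carry neither that allele nor another allele named in the labels. The other 6 arrays come from the second line, 3 MPI 118Q/118Q knockin mice and 3 of their own wild type littermates, of the same age and background. They enter below as a second measurement that shares no array with the first. The labels do not spell out MPI, and they give neither the construct, the embryonic stem cells nor the number of backcrosses behind either allele, which limits what the knockin mice can be said to model.

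Cacna1a encodes the subunit that forms the pore of P/Q-type calcium channels, which are abundant in Purkinje cells and at their synapses and in granule cells. Spinocerebellar ataxia type 6 is caused by a longer than normal CAG repeat near the end of its coding sequence, read as glutamines in one splice form. An allele with a repeat of normal human length serves as the control for the insertion itself, because it carries the engineered sequence without the disease-length repeat. The comparison of its carriers with littermates therefore asks what the knockin manipulation and everything inherited with it go along with in the cerebellum, without a long repeat.

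The arrays were of even quality within this line. Pairwise correlations between the 6 arrays over all probe sets were 0.986 to 0.995, and array medians were 2.21 to 2.37 on the log2 scale. The 18S ribosomal RNA control was 10.44 ± 0.17 (SD, n = 3) in wild type and 10.24 ± 0.13 (SD, n = 3) in knockin, with overlapping arrays (exact two-sided permutation p = 0.3, where 3 against 3 cannot go below 0.1). Defining markers of the labelled tissue were present in all arrays. The mean over 6 granule cell markers was 9.47 to 9.66 in wild type and 9.59 to 9.73 in knockin arrays, and the mean over 5 measured Purkinje markers was 9.57 to 9.68 and 9.50 to 9.66. The mean over 14 measured markers of the choroid plexus, the secretory epithelium of the ventricles beside the cerebellum, was 5.22 to 5.69 in wild type and 2.17 to 5.06 in knockin arrays, the widest range of the 10 cell types checked.

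No gene passed the test in the 11Q line. Of 12671 genes measured, 0 (0%) had an adjusted p below 0.05 by limma with Benjamini-Hochberg adjustment, and the smallest adjusted p was 0.419, shared by the 5 genes Mau2, Il33, Gadd45gip1, Comp and Zfp869. At an unadjusted p below 0.05 there were 536 genes (4.23%), of which 139 (1.1%) were higher and 397 (3.13%) lower in the knockin. The 3 knockin arrays lay wholly beyond the 3 littermate arrays for 1319 genes (10.4%), above them for 410 (3.24%) and below them for 909 (7.17%). The median difference over all genes was -0.04 on the log2 scale, with 7513 genes below 0 and 5155 above. Since no gene was called, differences of single genes below are given as values, and none of them is a gene that passed the test. The 10 genes named for the smallest p in each direction were taken from genes whose arrays did not overlap. For them that lack of overlap is a condition of the choice and not a result.

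The arrays limited what could be seen. The median standard error of a gene's log2 difference was 0.139 and the median 95% interval was 0.301 to either side. That interval lay within 1 log2 unit of 0, a doubling or halving, for 12387 genes (97.8%) and within 0.5 for 8624 genes (68.1%). The largest differences were few. Only 35 genes of those measured differed by more than 1, 3 of them higher and 32 lower. The 3 higher genes, Comp, Mau2 and Ocel1, all lie on chromosome 8, the chromosome of Cacna1a, and 21 of the 32 lower genes were on the choroid plexus list.

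Cacna1a itself was at the level of the littermates. Its brightest probe set read 6.36, 6.25 and 6.48 in the wild type arrays and 6.28, 6.42 and 6.17 in the knockin arrays. The groups overlapped, with a difference of -0.07 ± 0.15 (SE) and a 95% interval from -0.41 to 0.26 (limma, adjusted p = 0.954). Its other probe sets above the filter on dim probe sets lay slightly higher in the knockin, by 0.22 and 0.21, so the sign of the small difference depended on the probe set. A deposited probe set cannot tell the knockin allele from the wild type allele, and the value checks only the amount of message. In the 118Q line the same probe set differed by -0.34 ± 0.15.

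The other calcium channel subunits were also near their littermates' levels. Of the 18 measured genes on that list other than Cacna1a, 15 were above 0 and 3 below, with a median of 0.04 against -0.04 over all genes. The one member at an unadjusted p below 0.05 was Cacng8, a transmembrane AMPA receptor regulatory protein of the gamma subunit family, at 0.35 ± 0.14. Cacnb4, the beta subunit whose loss gives the lethargic mouse its ataxia, differed by -0.16, and Cacna2d2, the alpha2delta subunit of Purkinje cells, by 0.05.

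Genes of chromosome 8 were frequent among those with the smallest p-values. Of the 5 genes with the smallest unadjusted p, 4 lie on chromosome 8, as do 6 of the first 10, 9 of the first 20 and 16 of the first 50, while chromosome 8 holds 683 of the genes measured (5.39%). Of the 4 among the first 5, Gadd45gip1 lies 7 measured genes from Cacna1a, and Comp, Mau2 and Zfp869 lie 108, 123 and 131 genes from it. The first of these was Mau2, which pairs with Nipbl to load cohesin onto chromosomes. Mau2 read 4.36, 4.69 and 4.29 in the wild type arrays and 5.55, 5.64 and 5.87 in the knockin arrays. Each knockin array was above each littermate array, by a mean of 1.24 ± 0.20 (SE), a 2.36-fold higher level (limma, unadjusted p = 3.85e-05, adjusted p = 0.419).

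Comp, the cartilage oligomeric matrix protein, showed the widest gap of any gene that was higher. Its arrays read 1.98, 2.29 and 1.76 in wild type and 4.62, 4.52 and 4.68 in knockin. That is 2.60 ± 0.49 on the log2 scale (limma, adjusted p = 0.419), from near the floor of the array to a clear signal. In a fit of these 6 arrays alone Comp passed the test, as the only gene of 12671 (limma, adjusted p = 0.00141), a fit in which its spread in the littermates of the 118Q line, 1.31 (SD), does not enter the error. Slc25a42, a mitochondrial carrier of coenzyme A, was at 4.32, 4.05 and 3.75 against 4.82, 4.88 and 4.91, a difference of 0.83 ± 0.19. Ocel1, a gene with an occludin and ELL domain, was at 1.52, 1.30 and 1.59 against 2.46, 2.49 and 2.69, a difference of 1.08 ± 0.31. In both the groups did not overlap, as the choice required.

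Lower on chromosome 8 were 5 of the 10 genes named for the smallest p in that direction among genes whose arrays did not overlap. Gadd45gip1, a component of the mitochondrial large ribosomal subunit, read 5.88, 5.59 and 5.79 in wild type and 4.70, 4.86 and 4.79 in knockin. Its difference was -0.97 ± 0.18 (limma, adjusted p = 0.419), which makes the littermates 1.96-fold higher. A second, dimmer Gadd45gip1 probe set went the other way by 0.29 (SE 0.19). The zinc finger genes Zfp869 and Zfp961 differed by -0.68 ± 0.13 and -0.60 ± 0.14. Mri1, an isomerase of the methionine salvage pathway, is separated from Cacna1a by 1 measured gene and read 4.39, 4.61 and 4.32 against 3.34, 3.94 and 3.79, a difference of -0.75 ± 0.17. Lpcat2, which makes the lipid mediator platelet-activating factor, was at 2.37, 3.15 and 3.30 against 1.99, 1.78 and 1.70, a difference of -1.12 ± 0.25. All of these had every knockin array below every littermate array, as the choice required.

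**Figure D1:**
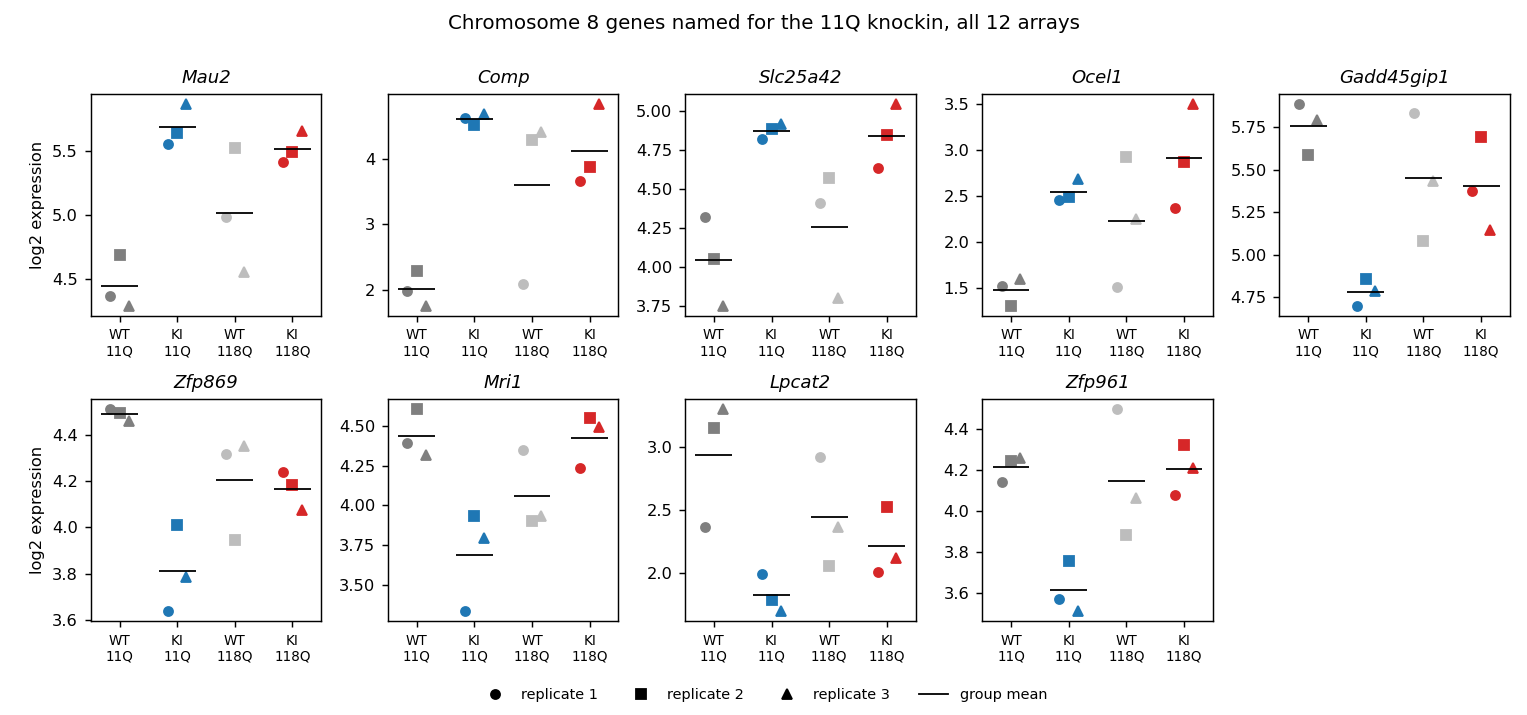
log2 expression of the 9 chromosome 8 genes named for the 11Q line (y axis, 1 scale per gene) in all 12 arrays by group; WT and KI are wild type littermates and knockin, symbols mark the replicate number and lines the group means. In the 11Q groups on the left no knockin array overlaps a littermate array in any panel, which was a condition for naming these genes. In the 118Q line Comp and Gadd45gip1 spread widely within a group.

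Over the whole chromosome, 59 of 683 genes (8.64%) had an unadjusted p below 0.05, against 4.23% of all genes, with 24 higher and 35 lower. At an unadjusted p below 0.01 the count was 20 (2.93%) against 108 of all genes (0.852%), the highest share of the 20 chromosomes, and 7 of the 11 genes below 0.001 were on it. The knockin and littermate arrays did not overlap for 118 chromosome 8 genes (17.3%), against 10.4% of all genes. In the 118Q line, where 846 genes (6.68%) were below 0.01, chromosome 8 held 35 (5.12%) and ranked 18 of 20.

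**Figure D2:**
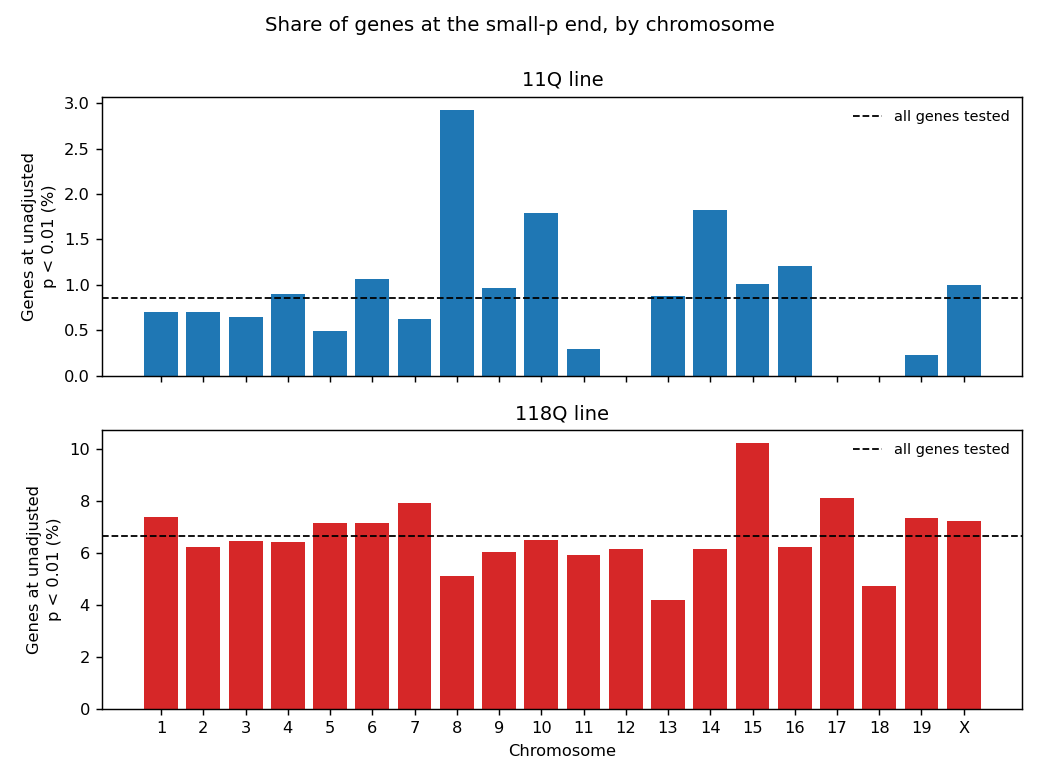
Share of measured genes with an unadjusted p below 0.01 (y axis, percent) on each chromosome (x axis) for the 11Q line above and the 118Q line below; dashed lines give the share over all genes tested. In the 11Q line chromosome 8 stands at 2.93% against 0.852% of all genes, while in the 118Q line it stands at 5.12% against 6.68%.

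The chromosome 8 genes were gathered around Cacna1a in gene order but were not most frequent right beside it. Counting measured genes along the chromosome from Cacna1a, 14 of the nearest 100 genes (14%) had an unadjusted p below 0.05. The window from 51 to 100 genes before it held 13 of 50 (26%), and the window from 101 to 150 before it held 8 of 50 (16%). That stretch includes Ocel1, Comp, Slc25a42, Mau2 and Zfp869. From 51 to 100 genes after it there were 5 of 50 (10%), and in the rest of the chromosome 19 of 432 (4.40%), against 4.23% of all genes. In the 118Q line 18.7% of all genes were below 0.05. There the same 2 windows before Cacna1a held 15 of 50 (30%) and 12 of 50 (24%), but the nearest 100 genes held 16 (16%). The window from 51 to 100 genes after it held 10 of 50 (20%), and the rest of the chromosome 66 of 432 (15.3%). Dividing every chromosome into runs of 50 measured genes gave 245 runs. The largest number of genes below 0.01 was 5, in the chromosome 8 run from Clcn3 to Tmem59l and in a chromosome 10 run from Tnfaip3 to Fyn, so the gathering was not limited to chromosome 8. The largest number below 0.05 was in the chromosome 8 run from Rex1bd to Eps15l1, with 12 in the 11Q line and 18 in the 118Q line.

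**Figure D3:**
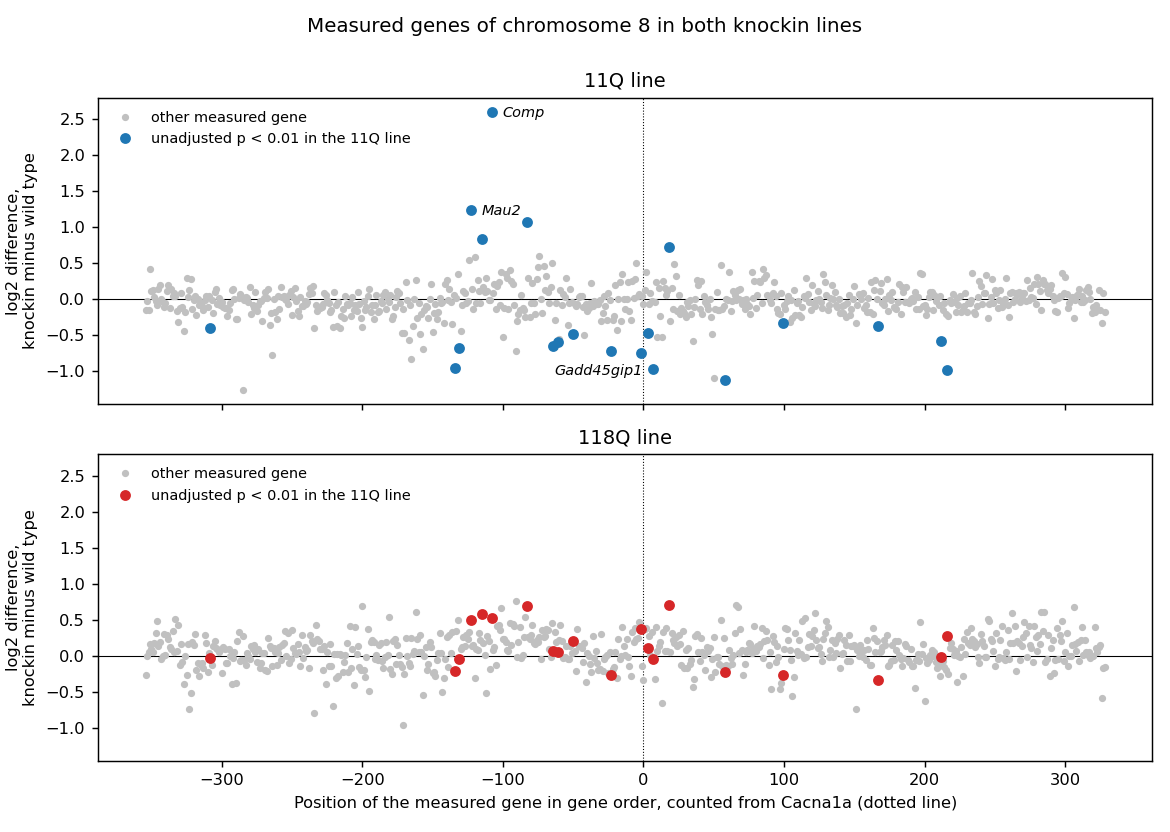
log2 difference between knockin and wild type littermates (y axis) of the measured chromosome 8 genes in gene order counted from Cacna1a (x axis, dotted line at 0) for the 11Q line above and the 118Q line below; coloured points had an unadjusted p below 0.01 in the 11Q line. Most coloured points lie between 150 genes before and 100 genes after Cacna1a, with Comp at 2.60 and Gadd45gip1 at -0.97. Most coloured points lie nearer to 0 in the 118Q line. Because they were chosen by their 11Q values, this is no test of a difference between the lines.

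Closest to Cacna1a, within 50 measured genes on either side, 13 named genes had an unadjusted p below 0.05. Besides Gadd45gip1 and Mri1, the lower ones were Smim7 (-0.49), Rnf150 (-0.73), Trmt1 (-0.47), Tbc1d9 (-0.29), Syce2 (-0.52) and Scoc (-0.42). Trmt1, a tRNA guanine methyltransferase 3 genes away, read 5.28, 5.08 and 5.29 in wild type and 4.84, 4.72 and 4.67 in knockin. Higher were Junb (0.72), Tnpo2 (0.49), Cc2d1a (0.50), Fbxw9 (0.31) and Farsa (0.24). Junb, a subunit of the AP-1 transcription factor that is induced by activity, read 2.39, 3.14 and 2.47 against 3.37, 3.31 and 3.47. Its difference in the 118Q line was of like size, 0.70. Scoc was the one of these 13 whose arrays overlapped. Without wild type array 3 the differences of Cc2d1a, Tnpo2 and Scoc were 0.19, 0.26 and -0.26.

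Agreement between probe sets was partial. Of the 20 chromosome 8 genes named above, 9 had another probe set above the filter, 15 in all. Of these, 12 had the same sign as the probe set reported, 4 of them at an unadjusted p below 0.05, and 3 had the opposite sign. The opposite one of Smim7 differed by 0.35 ± 0.13 (limma, unadjusted p = 0.017), where the probe set reported differed by -0.49. Those of Gadd45gip1 and Trmt1 differed by 0.29 and 0.10. For Mau2 the other probe sets differed by 0.10, 0.47 and 0.19, well under the 1.24 of the brightest one. For Farsa, the alpha subunit of phenylalanyl-tRNA synthetase, 1 of the other probe sets differed by 1.11 where the brightest differed by 0.24. What sets the probe sets of a gene apart was not tested.

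The 118Q line repeated part of this pattern. Among the 9 chromosome 8 genes with the smallest p described above, 7 lay on the same side of 0 in the 118Q line and 0 were called there, against 53.7% of all genes with the same sign and 24 (0.189%) called. The higher ones kept their side, at 0.50 ± 0.20 for Mau2, 0.53 ± 0.49 for Comp, 0.58 ± 0.19 for Slc25a42 and 0.69 ± 0.31 for Ocel1. Of the lower ones, Lpcat2 (-0.23 ± 0.25), Gadd45gip1 (-0.04 ± 0.18) and Zfp869 (-0.04 ± 0.13) were on the same side. Zfp961 (0.055 ± 0.14) and Mri1 (0.37 ± 0.17) were on the other side. Over the 59 chromosome 8 genes below 0.05, 20 of the 24 higher and 17 of the 35 lower kept their sign. The background differs by direction, since 7599 of all 12671 genes were above 0 in the 118Q line and 5069 below. Of the other 477 genes below 0.05, 238 did.

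The arrays of the 118Q line were themselves uneven at these genes. Comp read 2.09, 4.29 and 4.41 in the 3 wild type littermates of that line and 3.66, 3.88 and 4.84 in its knockin arrays. The first wild type array was thus near the 11Q littermates. The rest were nearer to the 11Q knockin arrays, though knockin arrays 1 and 2 of the 118Q line, at 3.66 and 3.88, were well below them. For the 9 named chromosome 8 genes, the number nearer to the 11Q knockin mean than to the 11Q littermate mean was 0, 9 and 4 in the wild type arrays numbered 1, 2 and 3 of the 118Q line, and 5, 4 and 7 in its knockin arrays. For the 20 chromosome 8 genes below 0.01 the numbers were 4, 15 and 5 in the wild type arrays and 10, 10 and 14 in the knockin arrays. That is 20% to 75% of them, a narrower range than for the 9 named genes. For the 88 genes of other chromosomes below 0.01 the numbers were between 18 (20.5%) and 36 (40.9%) in all 6 arrays. Over all genes the share was 27.0% to 50.6%. Within the 11Q line the knockin allele and the chromosome 8 sequence inherited with it cannot be told apart.

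Off chromosome 8 the gene with the smallest p was Il33, an alarmin cytokine of the interleukin 1 family that glia of the central nervous system hold in their nuclei. Il33 read 5.17, 4.54 and 5.29 in wild type and 3.68, 4.10 and 3.45 in knockin. Every knockin array was lower, by a mean of -1.26 ± 0.22 (SE), so that the littermates were 2.39-fold higher (limma, unadjusted p = 7.14e-05, adjusted p = 0.419). In the 118Q line its difference was -0.42 ± 0.22, on the same side.

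Other lower genes off chromosome 8 were Pnma2, a paraneoplastic Ma antigen of neurons (-0.75 ± 0.15), and Nt5e, the CD73 ectoenzyme that turns AMP into adenosine (-0.61 ± 0.14). A second, dimmer Nt5e probe set above the filter went the other way by 0.23 (SE 0.12). Arhgap18 (-0.54 ± 0.11) and Tpd52l1 (-0.60 ± 0.14) both lie on chromosome 10. The higher genes off chromosome 8 differed by less. They were Rasip1, an endothelial Ras-interacting protein (0.55 ± 0.15), Olfml2b, an olfactomedin-like matrix protein (0.54 ± 0.14), Dcdc2b (0.49 ± 0.14), Ifitm3, an interferon-induced membrane protein (0.49 ± 0.13), Izumo1r (0.38 ± 0.11) and Plppr3 (0.37 ± 0.11). A second, dimmer Dcdc2b probe set above the filter differed by 0.06 (SE 0.26). Arhgap18 read from 1.30 to 2.13 over the 6 arrays, Rasip1 from 1.55 to 2.54 and Izumo1r from 1.79 to 2.46, all near the floor. Of these 11 genes, Il33 included, 7 had the same sign in the 118Q line. Ifitm3 did not: it was above its littermates in every 11Q knockin array and below them in every 118Q knockin array, with a difference between the effects of -0.72 ± 0.19 (limma, adjusted p = 0.346).

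The largest differences of the line were in choroid plexus genes, and they followed single mice. Transthyretin, encoded by Ttr, carries thyroid hormone and is the most abundant product of the choroid plexus epithelium. Ttr read 11.93, 11.88 and 11.89 in the wild type arrays and 7.68, 5.26 and 11.79 in the knockin arrays. Knockin mice 1 and 2 were low, which gave a mean difference of -3.65 ± 1.60 (limma, unadjusted p = 0.0408, adjusted p = 0.939). The littermates and knockin mouse 3 read within 0.24 of the brightest probe set of their array, so near the top of the scale that Ttr cannot order these 4 mice or give the exact size of the difference. In the mean over the 14 measured choroid plexus markers knockin mouse 3 was below the littermates, at 5.06 against 5.22 to 5.69. The same split was present in the 118Q line without regard to genotype, with Ttr at 11.89, 6.25 and 11.82 in its wild type arrays and 11.79, 11.39 and 8.66 in its knockin arrays.

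The list of choroid plexus genes moved together with Ttr. Of 45 genes listed 39 were measured, and 38 were below 0, with a median of -1.29 against -0.04 over all genes and -0.20 for the same list in the 118Q line. Of these, 23 had an unadjusted p below 0.05, all lower, and 22 (56.4%) had all knockin arrays below all littermate arrays, against 7.17% of all genes. None was called by limma. The mean over the list was 4.68 ± 0.23 (SD, n = 3) in wild type and 3.37 ± 0.86 (SD, n = 3) in knockin (exact two-sided permutation p = 0.1, the smallest that 3 against 3 can give). The median over the list was 4.47 ± 0.32 (SD, n = 3) and 2.93 ± 1.20 (SD, n = 3), and there the groups overlapped (exact two-sided permutation p = 0.2). By that measure knockin array 3, at 4.31, was above wild type array 3, at 4.10. Knockin arrays 1 and 2 were both below every littermate array for 36 of the 39 genes, and knockin array 3 was nearer to the littermates' mean than to that of the other knockin arrays for 34. In bulk tissue, fewer cells of a type and less RNA per cell cannot be told apart.

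The members differed in size, with 21 lower by more than 1, 7 lower by 0.5 to 1 and 11 within 0.5 of 0 on the log2 scale. Kcnj13, an inward rectifier potassium channel of its apical membrane, read 6.30, 6.23 and 5.87 in wild type and 3.70, 2.58 and 5.62 in knockin. Aqp1, its water channel, read 3.96, 3.71 and 3.04 against 1.30, 1.00 and 2.60. Slc4a5, a bicarbonate cotransporter, Clic6, a chloride channel protein, and Kcne2, a potassium channel beta subunit, differed by -1.60, -2.02 and -3.09. Other transporters on the list were nearer to 0, with Slc13a4, a sulfate transporter, at -0.38 ± 0.23, Slco1c1, a thyroid hormone transporter, at -0.29 ± 0.20 and Slc5a5, the iodide transporter, at -0.15 ± 0.16.

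Products that are secreted or bind ligands were likewise of both kinds. Kl, which encodes the anti-ageing protein klotho, read 5.45, 5.38 and 4.60 in wild type and 0.77, 0.55 and 4.85 in knockin. Folr1, the folate receptor that brings folate into cerebrospinal fluid, read 5.50, 5.71 and 5.00 against 1.93, 1.26 and 4.85. Igfbp2, an insulin-like growth factor binding protein that meningeal cells also make, read 6.95, 6.95 and 6.57 against 4.50, 4.63 and 6.43. In these 3 genes the knockin mouse numbered 3 was within or just below the range of the littermates. The growth factor Igf2, by contrast, read 7.35, 7.42 and 7.11 in wild type and 7.02, 7.21 and 7.47 in knockin, with overlapping groups and a difference of -0.06 ± 0.26. Bmp7, a bone morphogenetic protein, differed by 0.01 ± 0.18. Col8a1, a short-chain collagen, was lower in all knockin mice, from 3.95 to 4.32 in wild type and from 2.16 to 3.32 in knockin arrays, a difference of -1.59 ± 0.40.

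**Figure D4:**
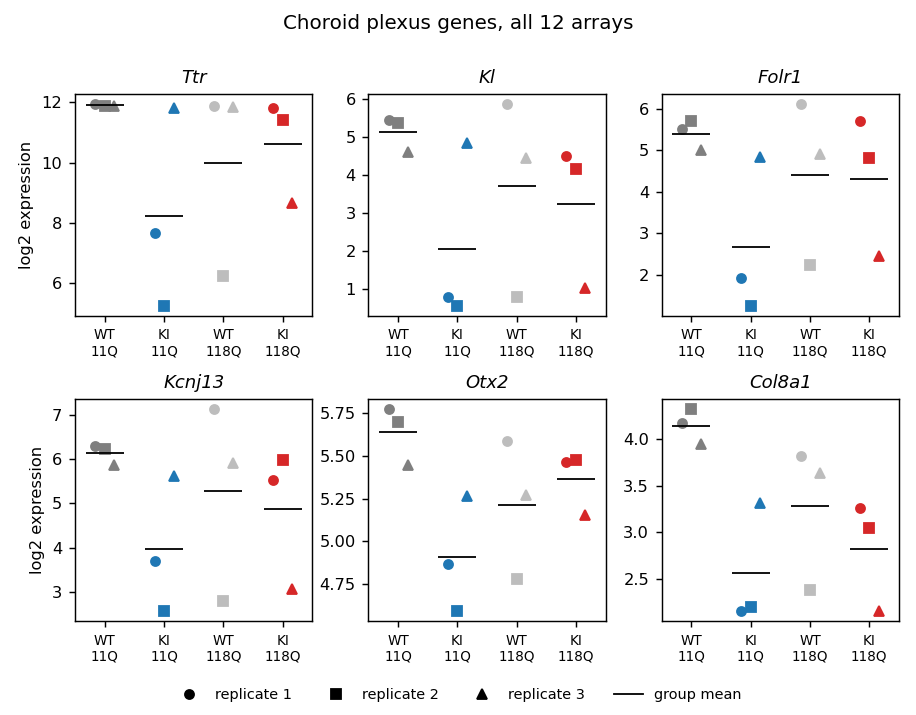
log2 expression of 6 choroid plexus genes (y axis, 1 scale per gene) in all 12 arrays by group; WT and KI are wild type littermates and knockin, symbols mark the replicate number and lines the group means. Knockin arrays 1 and 2 of the 11Q line sit low with Ttr at 7.68 and 5.26, knockin array 3 sits near the littermates at 11.79, and both genotypes of the 118Q line also hold a low array.

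Otx2, the homeodomain factor that sets choroid plexus identity, read 5.77, 5.70 and 5.45 in wild type and 4.87, 4.59 and 5.26 in knockin, a difference of -0.73 ± 0.21. Because the list moved together, the RefSeq promoters (GRCm38.p6) of its members were searched on both strands for TAATCC, the core that OTX2 prefers, from 250 bases before to 50 after the start of the gene. Of 32 measured members that had a promoter there, 5 held it in at least 1 listed promoter (15.6%), against 2199 of 27025 genes (8.14%). Ttr, Folr1, Sostdc1, Clic6, Lbp, Cdkn1c and Bmp7 had no entry. The 5 with the motif were Abca4 (-0.93), Otx2 (-0.73), Ace (-0.42), Car14 (-0.33) and Igf2 (-0.06), with a median difference of -0.42 against -1.32 for the 27 without it. Otx2 and Abca4, the 2 of the 5 with the largest differences, are shown. The match lay 211 bases before the start in Otx2 itself and 58 in Abca4, a retinoid transporter that read 4.50, 4.63 and 4.31 in wild type and 3.10, 3.35 and 4.21 in knockin. The 250 bases before the start of both genes are shown 5′ to 3′ on the gene's strand, with the match, read on the other strand as GGATTA, in capitals. Otx2 lies on the minus strand at chr14:48665110-48665359 and Abca4 on the plus strand at chr3:122044210-122044459.
Otx2: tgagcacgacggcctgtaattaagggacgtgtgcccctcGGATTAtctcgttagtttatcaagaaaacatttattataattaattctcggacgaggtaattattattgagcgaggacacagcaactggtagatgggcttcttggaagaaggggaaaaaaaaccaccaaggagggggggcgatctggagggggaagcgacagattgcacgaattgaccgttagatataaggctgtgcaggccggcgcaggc
Abca4: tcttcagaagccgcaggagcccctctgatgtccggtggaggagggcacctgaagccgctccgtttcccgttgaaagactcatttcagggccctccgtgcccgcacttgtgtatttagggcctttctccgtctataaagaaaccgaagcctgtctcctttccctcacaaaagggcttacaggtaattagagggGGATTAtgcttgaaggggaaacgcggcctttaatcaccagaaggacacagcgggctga
A match in these letters is a description and not a site of binding.

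Of the 11 genes outside the list that were lower by more than 1, knockin array 3 was nearer to the littermates for 6 (54.5%), against 46.2% of all genes. Htr2c, the serotonin 2C receptor, which the choroid plexus expresses at a high level, read 5.15, 5.26 and 5.78 in wild type and 1.94, 2.17 and 4.69 in knockin. Cldn1, Mdfic, Prr32, Slc2a12 and Defb11 also had knockin array 3 nearer to the littermates. For Il33, Lpcat2, Pcolce2, Gm19935 and Lamp5 it was nearer to the other knockin arrays. Lamp5 was high in wild type array 3 alone, at 1.74, 1.26 and 5.09 in wild type against 1.11, 1.31 and 1.28 in knockin, and its difference of -1.46 was -0.27 without that array. With Ttr as a covariate in the fit, the median of the choroid plexus list without Ttr itself was -0.20 and 2 of its 38 genes stayed below 0.05, while 19 of the 20 named genes did and all 20 kept their sign. Chromosome 8 then held 45 genes below 0.05 and 12 below 0.01, and 0 of all genes were called by limma, with 444 at an unadjusted p below 0.05. Mau2 was then at 1.06 ± 0.23, Comp at 2.18 ± 0.56 and Il33 at -1.40 ± 0.26. Within this line the covariate mainly sets knockin mice 1 and 2 apart, because Ttr is near the top of the scale in the other mice. It thus partly follows genotype, which limits all values with Ttr as a covariate, here and below.

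Ependymal genes, expressed by the ciliated cells that line the ventricles next to the choroid plexus, were on the same side of 0. All 12 measured members were below 0, where 59.3% of all genes were, with a median of -0.25. At an unadjusted p below 0.05, 2 of them were lower, where 3.13% of all genes were lower at that threshold. Dynlrb2, a dynein light chain of motile cilia that itself lies on chromosome 8, read 3.02, 3.26 and 3.11 in wild type and 1.92, 1.95 and 2.58 in knockin. As in the choroid plexus list, knockin array 3 was the nearest to the littermates, with a list median, of values centred per gene over all arrays, of -0.10 against -0.38 and -0.27. With Ttr as a covariate its median was -0.18. The part of choroid plexus content in these values was not tested beyond that fit.

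The lists of cerebellar cortex cells had medians near 0. The 30 measured Purkinje genes had a median of -0.02, with 14 above 0 and 16 below, and 1 at an unadjusted p below 0.05, against a median of -0.51 and 26 below 0 in the 118Q line. That member was Lhx5, a LIM homeodomain factor, at -0.58 ± 0.20. Slc1a6, the Purkinje cell glutamate transporter, differed by 0.00 ± 0.20. The 24 granule cell genes had a median of 0.01 and the 18 interneuron genes of 0.05, both with 0 members below 0.05. Astrocyte and Bergmann glia genes had a median of -0.05, also with 0 of 26 below 0.05. With single arrays left out, the medians of these 4 lists lay between -0.08 and 0.11.

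Microglial genes were near their littermates' level in the 11Q line. Their median was 0.01 over 28 genes with 0 below 0.05, against 0.41 and 27 of 28 above 0 in the 118Q line. Of the genes that mark microglia in disease 9 lay above and 9 below 0, with a median of 0.03. The member with the smallest p was Csf1, the growth factor that sustains microglia, at 0.40 ± 0.13, with every knockin array above every littermate array. Trem2, a microglial lipid receptor, differed by 0.08 ± 0.13. The cytokine and NF-kB list had a median of 0.06, with Cx3cl1, a neuronal chemokine that lies on chromosome 8, at 0.37 ± 0.15 and Vcam1, a vascular adhesion molecule, at -0.37 ± 0.10.

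Interferon-stimulated genes were above their littermates as a list, but unevenly between mice. Of 31 measured members 26 were above 0, with a median of 0.22 against -0.04 over all genes and -0.04 for the list in the 118Q line. Of these, 4 were higher at an unadjusted p below 0.05, where 1.1% of all genes were higher at that threshold. They were Ifitm3, Psmb9, Irf7 and Ifit1, and none was called. Ifit1, which binds viral RNA, differed by 0.98. The list's median, of values centred per gene over all arrays, was 0.35, -0.10 and -0.02 in the knockin arrays and -0.11, -0.23 and -0.06 in the littermates. Knockin mouse 1 was thus the high one, and without it the median was 0.10. With Ttr as a covariate 30 of 31 were above 0, with a median of 0.34.

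Oligodendrocyte genes and genes of stress handling were mostly a little lower. Of 24 oligodendrocyte genes 20 were below 0, where 59.3% of all genes were, with a median of -0.17, and Ermn, a cytoskeletal protein of myelin, was the one member below 0.05, at -0.52 ± 0.20. The median of that list was -0.004 when knockin mouse 1 was left out and -0.33, with 7 members below 0.05, with Ttr as a covariate. Chaperones had 27 of 32 below 0 and a median of -0.11, with the small heat shock protein Cryab at -0.64 ± 0.21. Wild type array 3 weighed on that list, whose median was -0.04 without it and -0.18 without wild type array 2, and without wild type array 3 Cryab was at -0.40 and Ermn at -0.33. Genes of endoplasmic reticulum folding and stress had 22 of 26 below 0 and a median of -0.12, with the stress sensor Ern1 at -0.30 ± 0.11, and the median was -0.07 without wild type array 3. Glucocorticoid-induced genes had a median of -0.11, and 4 of 20 were lower at an unadjusted p below 0.05, against 3.13% of all genes. The list's median, of values centred per gene, was 0.02, -0.28 and -0.44 in the knockin arrays and -0.09, 0.05 and -0.09 in the littermates, so that knockin mouse 1 lay within the littermates' range. The median difference was -0.07 without knockin mouse 2 or without knockin mouse 3 and -0.22 without wild type array 1. Of the 4 genes Sgk1, a kinase, read 7.18, 7.73 and 8.14 in wild type and 6.62, 6.86 and 6.96 in knockin, and Pdk4, which inhibits pyruvate dehydrogenase, 3.29, 3.28 and 3.55 against 2.83, 2.63 and 2.34.

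Vessel and housekeeping lists lay near 0. Endothelial and mural genes had a median of -0.01 over 28, against -0.41 in the 118Q line, with the endothelial coreceptor Eng at 0.53 ± 0.16 and the smooth muscle myosin Myh11 at 0.33 ± 0.10. Ribosomal protein genes had a median of -0.06 over 36, against 0.33, and oxidative phosphorylation genes -0.02 over 67, against 0.21. Polyglutamine disease genes other than Cacna1a had a median of 0.00 over 7, and mouse ataxia genes 0.00 over 18.

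**Figure D5:**
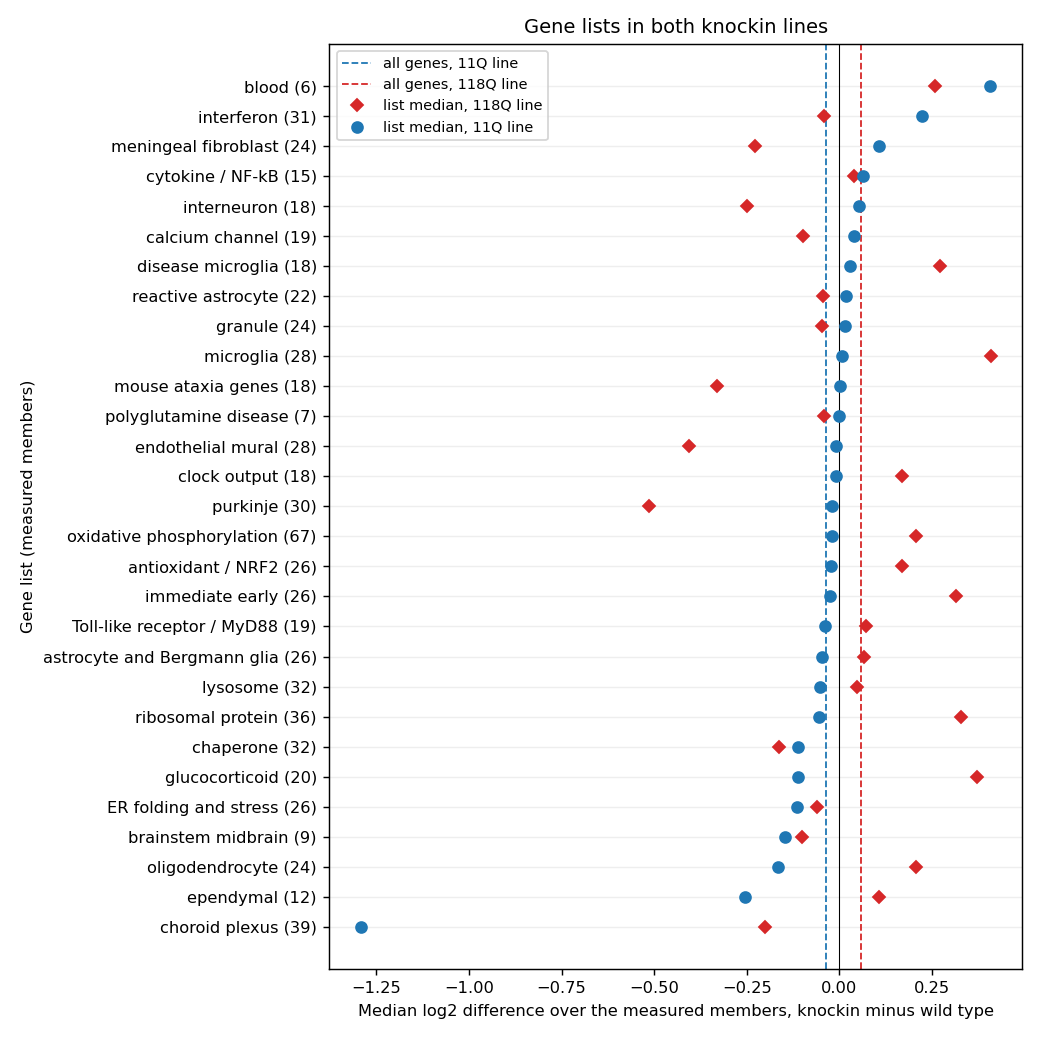
Median log2 difference between knockin and wild type littermates (x axis) over the measured members of each of 29 gene lists (y axis, number of members in brackets) for the 11Q line (circles) and the 118Q line (diamonds); dashed lines give the medians over all genes. The choroid plexus list stands apart in the 11Q line at -1.29, the interferon list lies at 0.22, and Purkinje (-0.02) and microglial (0.01) genes lie near 0 in the 11Q line but not in the 118Q line.

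Most genes called in the 118Q line were near their littermates' levels in the 11Q line. All 24 lay between -0.30 and 0.28, with a median absolute difference of 0.0497 against 0.832 in the 118Q line. In the 11Q line 2 of the 24 had an unadjusted p below 0.05, against 4.23% of all genes. They were Hddc2 (-0.30, 95% interval from -0.54 to -0.05) and Il20rb (-0.25, from -0.47 to -0.03), both on the other side of 0 from the 118Q line, where they differed by 0.66 and 0.61. For each of the 24 the 95% interval of the 11Q difference left out the 118Q value. That comparison leaves out the error of the 118Q value. Because the genes were chosen for a large 118Q value, it is no test of a difference between the lines. The sodium channel partner Fgf14, for example, differed by -0.03 ± 0.20 in the 11Q line and by -1.64 in the 118Q line. The test of the difference between both effects, over all genes, called 0 (0%) by limma with Benjamini-Hochberg adjustment, with 1392 (11%) at an unadjusted p below 0.05 and a smallest adjusted p of 0.1315. All 24 were among the 1392, as genes chosen for a large value in one of the lines.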

How the data were processed

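The authors deposited 1 table of log2 expression values per probe set, made by RMA (version not given in the sources used here) per the submitters' processing notes, and the log2 scale was read from the range of the values. Groups were taken from the sample titles. Of 45101 probe sets, 34958 had 1 gene symbol, 932 several and 9211 none in the platform annotation. The 40% with the lowest means (log2 under 1.58) were removed, and the brightest probe set was kept per symbol, which left 12671 genes, 12645 of them with a place in the RefSeq gene order. limma 3.58.1 in R 4.3.3 fitted the means of all 4 groups (8 residual degrees of freedom), with Benjamini-Hochberg adjustment over all genes and a threshold of 0.05. The scripts were tested on simulated data. Of probe sets without a single symbol, 4234 were tested, 0 were called by limma and 115 had an unadjusted p below 0.05.

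The text names Cacna1a, the 10 genes with the smallest p in each direction whose arrays did not overlap (no gene was called), up to 3 members per list by p (10 for choroid plexus), and neighbours of Cacna1a below 0.05. Other genes named were chosen after their values were seen. The members and lists were chosen with earlier results of these data known. Replicate numbers were not taken as pairs of mice. The labels give a minimum RNA integrity number of 5. The number of arrays, 3 a group, limits the precision.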

Additional observations from a re-analysis of the deposited data

How the results depend on the processing

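In the 11Q line limma called 0 genes under other filters, probe set rules and normalizations, an intensity trend, array weights, either covariate, and without each array in turn (range 0 to 0). The fit of these 6 arrays alone called 1, Comp (adjusted p = 0.00141), and a threshold of unadjusted p below 0.05 with at least 1.5-fold passed 100. The difference between both lines' effects, with 0 calls, had 614 with array weights, whose estimation did not converge fully, 440 at that unadjusted threshold, and 0 to 12 with single arrays left out (4 without wild type array 2 of the 118Q line, 12 without its knockin array 1). The number of the 20 named genes on the same side in the 118Q line was 14, but 8 with the lowest 60% of probe sets removed, which leaves 12 of the 20 to count, 8 with the 18S signal as covariate, and 11 to 15 with single arrays left out; for the 18S covariate the cause was not tested. The chromosome 8 count below 0.05 was 59, became 96 when probe sets were counted one by one, and ranged from 40, without wild type array 3, to 77, without wild type array 2. The choroid plexus median of -1.29 became -0.20 with Ttr as covariate, which takes up the variation these genes share with Ttr, and ranged from -1.64 to -0.86 with single arrays left out. Cacna1a changed sign to 0.12 as the mean of its probe sets, 0.0086 with array weights and 0.0578 with Ttr as covariate. Of 2143 values of 121 named genes, 2139 kept their direction and side of the threshold. All settings draw on the same arrays and no gene was called in the main fit, so this count was largely fixed beforehand. Replicate numbers were not taken as pairs of mice. In the 11Q line the correlations between arrays of the same number were 0.19, -0.17 and 0.01. Between different numbers they were -0.13 to 0.0024, -0.06 to 0.16 and -0.16 to 0.13, for replicates 1, 2 and 3. These few values cannot settle whether the numbers pair mice. The replicate block gave 0 calls, 57 chromosome 8 genes and 14 on the same side.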

Other observations

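Among the arrays of the 11Q line, the list of blood and neutrophil genes had its highest median in knockin array 3. Of 6 measured members 4 were above 0, with a median of 0.41. At an unadjusted p below 0.05, 2 were higher, where 1.1% of all genes were higher at that threshold. The list's median, of values centred per gene over all arrays, was -0.18, -0.27 and 0.30 in the knockin arrays and -0.22, -0.16 and -0.42 in the littermates. The median difference was 0.25 without knockin array 3. S100a9, a calcium-binding protein of neutrophils, read 0.99, 1.48 and 1.49 in wild type and 1.71, 1.75 and 2.55 in knockin, all close to the floor of the array. Alas2, the haem synthesis enzyme of red cell precursors, read 3.34, 2.73 and 3.10 against 3.97, 3.34 and 3.54, a difference of 0.56 ± 0.25. Meningeal fibroblast genes had a median of 0.11, which was 0.04 without wild type array 2, with 16 of 24 above 0. Col1a1, a fibrillar collagen, was at 0.31 ± 0.13 and Lum, a matrix proteoglycan, at -0.53 ± 0.19.

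A probe set of Cab39l went against the gene's other probe sets. The brightest one, for this scaffold of the kinase Stk11, differed by -0.83 with knockin array 3 near the littermates, as in the choroid plexus list. A dimmer probe set read 1.04, 1.01 and 1.46 in wild type and 2.09, 2.79 and 2.53 in knockin, a difference of 1.30 in which array 3 was as high as the others.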
